A study of Mus musculus with 22 samples.

Results

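The genes described here are 9 heavy chain genes of mouse major histocompatibility complex (MHC) class I: H2-K1, H2-D1, H2-Q4, H2-Q6, H2-Q7, H2-T23, H2-T22, H2-T10 and H2-M3. They were taken by gene symbol from a table of RNA-Seq read counts with 46078 genes, and each symbol matched 1 gene. RNA came from the distal colon of 22 mice, 1 library per mouse. The C57BL/6 group held 8 wild type control mice of 14 weeks (4 males, 4 females). The Winnie group held 7 mice of 14 weeks (3 males, 4 females) whose colon the labels call inflamed, and the Winnie-Prolapse group held 7 mice of 18 weeks (4 males, 3 females) whose colon the labels call severely inflamed. Winnie mice carry a missense change in Muc2, the gene of the main secreted mucin of the colon, and develop spontaneous colitis. The labels name no drug or other treatment. Prolapse went with an older age and with a stronger label of inflammation, so those effects cannot be told apart, and no C57BL/6 mice of 18 weeks were analyzed here.

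A class I heavy chain pairs with the light chain beta-2 microglobulin (B2m) and a short peptide in the endoplasmic reticulum, and the complex is carried to the cell surface. The classical molecules, here H2-K1 and H2-D1, are made by nearly all nucleated cells and show peptides from inside the cell to CD8+ T cells. The non-classical molecules of the Q, T and M regions show narrower sets of ligands: H2-T23 encodes Qa-1, which shows a leader peptide of other class I chains to CD94/NKG2 receptors, H2-Q6 and H2-Q7 encode Qa-2 molecules, H2-M3 shows formylated peptides of bacterial or mitochondrial origin, and H2-T22 and H2-T10 are read by some gamma-delta T cells without a peptide. Interferons raise class I transcription in epithelial and immune cells, through factors that include Irf1 and Nlrc5.

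All 9 genes lie on chromosome 17 of the GRCm38 build, within 3.28 Mb. H2-K1 lies at chr17:33996017-34000347 on the minus strand and H2-D1 at chr17:35262730-35267499 on the plus strand. The Q genes follow on the plus strand, with H2-Q4 at chr17:35379617-35385290, H2-Q6 at chr17:35424850-35430055 and H2-Q7 at chr17:35439155-35443773. The T genes are on the minus strand, with H2-T23 at chr17:36029773-36032855, H2-T22 at chr17:36037128-36042747 and H2-T10 at chr17:36115876-36121465. H2-M3 lies at chr17:37270220-37274484 on the plus strand. The annotation calls 8 of the genes protein coding and H2-T10 a polymorphic pseudogene. Counts of these genes cover all their annotated exons, untranslated parts included. H2-Q4 overlaps Gm11131 on the other strand, H2-T23 and H2-T22 overlap A930015D03Rik on the other strand, and H2-T10 overlaps Gm7030 on its own strand and BC023719 on the other strand, so reads of these places can belong to more than 1 gene.

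Members of this family resemble each other closely. The coding sequences of H2-T22 and H2-T10 were identical at 96.9% of aligned bases, those of H2-Q6 and H2-Q7 at 95.4% and those of H2-K1 and H2-D1 at 91.5%. The lowest identity shown here, between H2-K1 and H2-T10, was 72.7%. In windows of 100 bases, about the length of 1 read, 12.0% of the H2-Q7 transcript windows and 10.8% of those of H2-Q6 also occurred in transcripts of another gene. The share was 8.86% for H2-T22, 7.06% for H2-T10, 3.59% for H2-D1, 3.15% for H2-T23, 2.16% for H2-Q4, 0.957% for H2-K1 and 0.0% for H2-M3. H2-Q7 shared the most windows with H2-Q10 (5.56%) and H2-D1 with H2-Q1 (3.28%), 2 genes outside the members. How the counting treated reads that match several genes is not given in the sources used here. The split of counts between H2-Q6 and H2-Q7, between H2-T22 and H2-T10, and between members and such other genes is therefore uncertain.

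The stretches before the transcription start show what the members share outside the coding sequence. The sequences below are from RefSeq on GRCm38.p6, 5′ to 3′ on the strand of the gene. They end just before the first annotated exon, and capitals mark matches to the motifs listed after them. H2-K1 is chr17:34000348-34000547 on the minus strand, H2-Q4 is chr17:35379417-35379616, H2-Q6 is chr17:35424650-35424849, H2-Q7 is chr17:35438955-35439154 and H2-M3 is chr17:37270034-37270219, all on the plus strand, and H2-T22 is chr17:36042748-36042942 on the minus strand. H2-D1 and H2-T23 are not shown because only 0 and 46 bases of this stretch lay outside their annotated exons, and H2-T10 had no entry.
H2-K1: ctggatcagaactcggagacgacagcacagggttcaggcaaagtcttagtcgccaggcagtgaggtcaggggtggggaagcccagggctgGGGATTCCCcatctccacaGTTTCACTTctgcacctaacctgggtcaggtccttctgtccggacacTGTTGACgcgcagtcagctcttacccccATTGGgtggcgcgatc
H2-Q4: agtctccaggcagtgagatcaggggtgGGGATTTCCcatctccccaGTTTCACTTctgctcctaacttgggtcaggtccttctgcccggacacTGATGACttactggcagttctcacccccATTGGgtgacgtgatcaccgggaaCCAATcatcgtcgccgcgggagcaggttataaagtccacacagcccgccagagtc
H2-Q6: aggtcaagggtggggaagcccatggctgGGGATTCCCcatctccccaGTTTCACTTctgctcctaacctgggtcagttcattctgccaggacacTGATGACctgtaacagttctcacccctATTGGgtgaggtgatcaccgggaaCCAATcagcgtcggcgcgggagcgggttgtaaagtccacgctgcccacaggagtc
H2-Q7: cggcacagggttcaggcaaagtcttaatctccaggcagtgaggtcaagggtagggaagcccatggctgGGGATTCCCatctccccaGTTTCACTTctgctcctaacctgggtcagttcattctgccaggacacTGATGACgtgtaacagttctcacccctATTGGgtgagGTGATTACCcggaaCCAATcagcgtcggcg
H2-T22: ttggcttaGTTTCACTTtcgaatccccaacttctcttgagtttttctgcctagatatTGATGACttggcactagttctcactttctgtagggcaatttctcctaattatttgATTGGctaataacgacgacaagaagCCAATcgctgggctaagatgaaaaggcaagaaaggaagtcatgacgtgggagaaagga
H2-M3: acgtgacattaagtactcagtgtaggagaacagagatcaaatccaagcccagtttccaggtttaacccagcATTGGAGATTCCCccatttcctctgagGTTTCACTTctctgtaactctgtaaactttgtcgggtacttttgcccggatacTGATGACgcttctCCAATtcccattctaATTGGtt

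The core of the kappaB site of enhancer A, spelled GGGATTCCC, was searched with 4 other motifs on both strands of the 250 bases before the start, in all 27025 genes with an entry and in 8 of the 9 members (H2-T10 was not matched). The motifs were chosen after these sequences had been seen. GGGATTCCC was found in H2-K1, H2-D1, H2-Q6 and H2-Q7, that is 4 of 8 members, against 0.311% of all promoters. A looser spelling that includes it, GNGATTNCC, was found in 6 of 8 members, H2-Q4 and H2-M3 being added, against 2.32%. The core of an interferon-stimulated response element, GTTTCACTT, was found in 7 of 8 members, all but H2-T23, against 0.352% of promoters. TGNTGAC, the core of the X2 box, was in 8 of 8 members and 11.7% of promoters, and CCAAT, the core of the Y box, in 8 of 8 and 34.5%. The X2 match of H2-T23 lay on the opposite strand. The start used lay 154 bases inside the annotated gene for H2-T23 and 364 bases inside for H2-D1. The H2-T23 window thus reached less far upstream of the gene, and matches further up would have been missed. In H2-M3 the looser kappaB match overlaps a CCAAT match on the opposite strand. In H2-K1 the kappaB match ran from 110 to 102 bases before the start, the response element from 91 to 83, the X2 match from 44 to 38 and the CCAAT match from 16 to 12. The same order, kappaB, response element, X2 box, CCAAT, was seen in H2-D1, H2-Q4, H2-Q6 and H2-Q7, the last with a further loose kappaB match between the CCAAT matches, and in H2-M3 beside the CCAAT match that overlaps its kappaB match. These matches describe letters in the sequence and were not tested as binding sites.

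Library totals ran from 24.8 to 36.3 M counts, so that 3 counts, taken as the floor of detection, equal 0.0825 to 0.121 CPM (counts per M counts of the library), and all members lay above that in every library. All 8 distal colon markers were expressed. Muc2 carries a missense change, so its RNA level checks no label. Libraries 5 and 7 of C57BL/6 and library 6 of Winnie-Prolapse stood apart: the first held the highest leukocyte marker sum of its group (239 CPM), the next the lowest (32.6 CPM), and the last had 18.0% of its counts in 6 milk protein genes. Without these 3 libraries, a setting added after the data had been seen, 8 of 9 members passed the stricter limits given below in Winnie-Prolapse against C57BL/6, with 8.79% of genes higher. The 1 lost was H2-T23 (log2 fold change 0.67, adjusted p = 0.00172 in edgeR). In Winnie against C57BL/6, 0 passed, with 0.052% of genes higher, and 7 were higher at an adjusted p under 0.05 and 1.5-fold, against 8.18% of genes. In Winnie-Prolapse against Winnie, 0 passed the stricter limits, with 0% of genes higher. All p-values measure the spread between mice of these groups.

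Levels per transcript length were compared as CPM per kilobase of exon (FPKM), with no test. In C57BL/6 mice the classical genes stood far above the rest, H2-K1 at 281 ± 28.2 FPKM (SD, n = 8) and H2-D1 at 226 ± 16.5. H2-T23 followed at 42.6 ± 2.14, then H2-T22 at 16.9 ± 2.36 and H2-Q4 at 15.9 ± 1.70. The lowest were H2-Q6 at 5.74 ± 3.22, H2-M3 at 4.03 ± 0.483, H2-Q7 at 2.06 ± 1.52 and H2-T10 at 0.839 ± 0.320. Neighbors that did not overlap in C57BL/6 were H2-D1 and H2-T23, H2-T23 and H2-T22, and H2-Q4 and H2-Q6. The ranges of H2-K1 and H2-D1 overlapped, although H2-K1 was the higher in 8 of 8 mice, and H2-T22 exceeded H2-Q4 in 6 of 8.

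The order differed in the inflamed colon. In Winnie-Prolapse mice H2-D1 stood first at 700.2 ± 101 FPKM (SD, n = 7) and exceeded H2-K1, at 588 ± 110, in 7 of 7 mice, although the ranges overlapped. H2-Q4 came next at 74.3 ± 17.4, ahead of H2-T23 (62.3 ± 10.45) in 5 of 7 mice, and H2-Q6 followed at 58.7 ± 17.8, above H2-T22 (32.3 ± 6.30) with no overlap. H2-Q7 (28.3 ± 10.9), H2-M3 (7.75 ± 1.03) and H2-T10 (2.82 ± 0.715) closed the order. Winnie mice stood between, with H2-D1 at 472 ± 178 FPKM and H2-K1 at 417 ± 121, the former higher in 6 of 7 mice. There only H2-K1 and H2-T23, and H2-M3 and H2-T10, were neighbors without overlap.

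The classical genes were higher in both Winnie groups, H2-D1 by more than H2-K1. H2-K1 ran from 691 to 913 CPM in C57BL/6 (median 845), from 846 to 1719 in Winnie (median 1109) and from 1248 to 2133 in Winnie-Prolapse (median 1664). The Winnie-Prolapse mice lay above all C57BL/6 mice, and 5 of 7 Winnie mice did, all but replicates 4 and 5. H2-K1 differed from C57BL/6 by a log2 fold change of 0.65 ± 0.16 (SE) in Winnie, 1.57-fold, with adjusted p = 0.00946, and by 1.16 ± 0.14 in Winnie-Prolapse, 2.24-fold, with adjusted p = 8.36e-06 (edgeR quasi-likelihood test, Benjamini-Hochberg adjustment over all genes). H2-D1 ran from 512 to 634 CPM in C57BL/6 (median 592), from 547 to 1794 in Winnie (median 1138) and from 1407 to 2115 in Winnie-Prolapse (median 1956). Only Winnie replicate 5 lay within the C57BL/6 range. The log2 fold change of H2-D1 was 1.15 ± 0.20 in Winnie, 2.22-fold, with adjusted p = 0.00236, and 1.73 ± 0.12 in Winnie-Prolapse, 3.31-fold, with adjusted p = 4.61e-08. As these are bulk samples, a change in the number of cells of a type and a change in RNA per cell cannot be told apart.

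Among the 9 members, the Q genes H2-Q4, H2-Q6 and H2-Q7 had the highest fold changes in Winnie-Prolapse against C57BL/6. H2-Q4, whose product is also called Qb-1, ran from 36.0 to 48.8 CPM in C57BL/6 (median 41.0), from 43.0 to 215 in Winnie (median 131) and from 142 to 259 in Winnie-Prolapse (median 169). Of the Winnie mice, replicate 5 alone did not exceed every C57BL/6 mouse. H2-Q4 rose 3.11-fold in Winnie (log2 fold change 1.64 ± 0.29, adjusted p = 0.00299) and 4.90-fold in Winnie-Prolapse (2.29 ± 0.11, adjusted p = 2.20e-09), where it ranked 4 by p among all genes tested. The Qa-2 gene H2-Q6 ran from 5.80 to 26.5 CPM in C57BL/6 (median 10.8), from 15.5 to 139 in Winnie (median 64.3) and from 87.7 to 198 in Winnie-Prolapse (median 105). The top of the C57BL/6 range is replicate 5, with 15.2 CPM for the next mouse. H2-Q6 rose 5.79-fold in Winnie (2.53 ± 0.47, adjusted p = 0.00352) and 10.9-fold in Winnie-Prolapse (3.44 ± 0.30, adjusted p = 5.26e-07). H2-Q7, the other Qa-2 gene, ran from 3.71 to 23.7 CPM in C57BL/6 (median 7.11), from 11.8 to 130.4 in Winnie (median 47.5) and from 72.4 to 210.3 in Winnie-Prolapse (median 116). Winnie replicates 4 and 5 lay within the C57BL/6 range for both H2-Q6 and H2-Q7. H2-Q7 rose 6.96-fold in Winnie (2.80 ± 0.53, adjusted p = 0.00385) and 14.8-fold in Winnie-Prolapse (3.88 ± 0.39, adjusted p = 1.87e-06).

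The T genes and H2-M3 moved by less, apart from the weakly expressed H2-T10. H2-T23, the Qa-1 gene, ran from 114 to 131 CPM in C57BL/6 (median 122), from 116 to 234 in Winnie (median 162) and from 137 to 222 in Winnie-Prolapse (median 180.3). Only Winnie replicate 5 did not exceed the C57BL/6 mice. H2-T23 differed 1.45-fold in Winnie (0.54 ± 0.14, adjusted p = 0.0127), under the 1.5-fold limit, and rose 1.56-fold in Winnie-Prolapse (0.64 ± 0.11, adjusted p = 0.000213). H2-T22 ran from 42.1 to 69.9 CPM in C57BL/6 (median 59.0), from 60.3 to 107 in Winnie (median 71.4) and from 88.5 to 142 in Winnie-Prolapse (median 118). Winnie replicates 4 and 5 did not exceed the C57BL/6 mice. Its fold changes were 1.501 in Winnie (0.59 ± 0.14, adjusted p = 0.0104), at the limit, and 2.04 in Winnie-Prolapse (1.03 ± 0.13, adjusted p = 1.20e-05).

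H2-T10 was the lowest member, at 1.70 to 4.86 CPM in C57BL/6 (median 3.02), 2.67 to 10.26 in Winnie (median 5.09) and 7.17 to 13.2 in Winnie-Prolapse (median 9.03). Winnie replicates 4, 5 and 6 lay within the C57BL/6 range. Its log2 fold change was 1.16 ± 0.34 in Winnie, 2.23-fold, with adjusted p = 0.0215, and 1.82 ± 0.22 in Winnie-Prolapse, 3.54-fold, with adjusted p = 1.12e-05. H2-M3 ran from 4.67 to 6.67 CPM in C57BL/6 (median 5.84), from 6.33 to 12.5 in Winnie (median 7.25) and from 9.15 to 14.0 in Winnie-Prolapse (median 10.9). Winnie replicates 5 and 6 lay within the C57BL/6 range. H2-M3 rose 1.55-fold in Winnie (0.64 ± 0.16, adjusted p = 0.0113) and 2.04-fold in Winnie-Prolapse (1.03 ± 0.10, adjusted p = 2.16e-06).

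**Figure D1:**
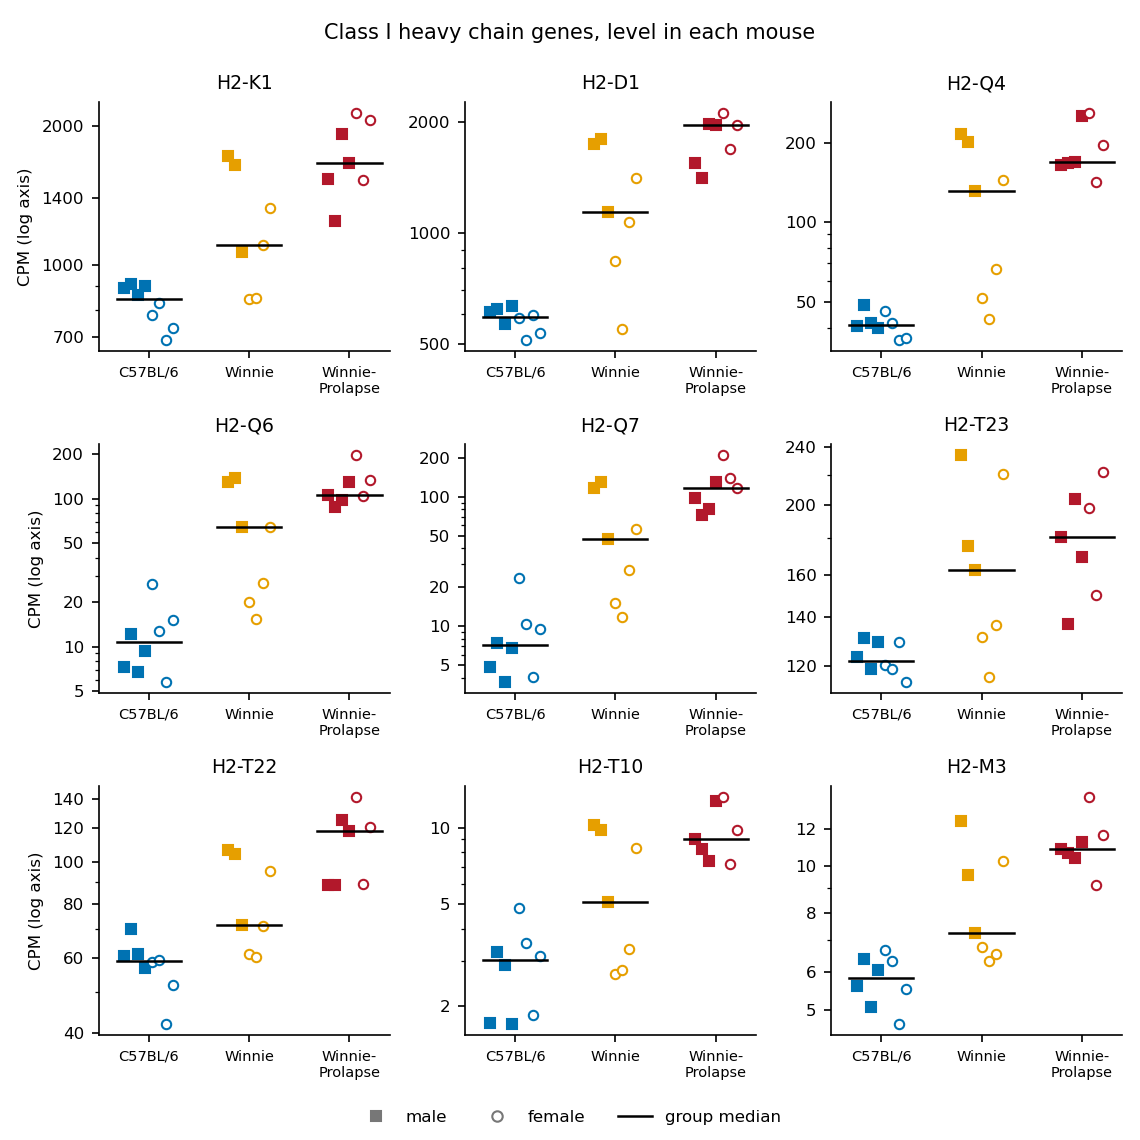
CPM of each of the 9 genes in each mouse (1 point per mouse, males and females marked apart, logarithmic axis) in C57BL/6 (n = 8), Winnie (n = 7) and Winnie-Prolapse (n = 7), with the bar at the group median. The Winnie-Prolapse points lie above all C57BL/6 points for all 9 genes, and the Winnie points spread between, from 11.8 to 130.4 CPM for H2-Q7.

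In Winnie against C57BL/6, 0 of the 9 members passed the limits of the study, an adjusted p under 0.001 and a change of at least 1.5-fold, and 0.0868% of the genes tested were higher by those limits. At an adjusted p under 0.05 with the same fold limit, 8 of 9 members were higher, all but H2-T23, against 7.42% of genes. All 9 had an unadjusted p under 0.05, and their median log2 fold change was 1.15, against -0.01 over the 17289 genes tested. DESeq2 called 5 of 9 at the stricter limits, by which it found 3.46% of genes higher. The count at 0.05 was 4 without Winnie replicate 1, where 5.67% of genes were higher, 6 without Winnie replicate 7, where 7.02% were, and 7 to 9 with any other single library left out, where 5.69% to 9.19% were. In males alone 9 of 9 were higher by these wider limits (0.05 and 1.5-fold), against 11.8% of genes, with log2 fold changes of 3.69 for H2-Q6 and 4.16 for H2-Q7. In females alone 0 of 9 were, against 0.00579% of genes, and the adjusted p ran from 0.186 to 0.600. The log2 fold changes in females alone were 1.22 for H2-Q6 (adjusted p = 0.268) and 1.36 for H2-Q7 (0.272), and those of the other members were 0.45 to 1.06. At the stricter limits, 4 of 9 were called without Winnie replicate 5, where 3.89% of genes were called in either direction. None of the 9 had CPM ranges that did not overlap, against 0.463% of genes.

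In Winnie-Prolapse against C57BL/6, 9 of 9 members were higher by the stricter limits, against 9.84% of genes. All 9 had CPM ranges that did not overlap, against 6.5% of genes, and their median log2 fold change was 1.73, against -0.01 over the 17397 genes tested. In males alone 3 of 9 passed the stricter limits, where 1.43% of genes were higher, and in females alone 3 of 9 did, where 1.28% were. By the wider limits 8 of 9 were higher in males alone, all but H2-T23 (0.51, adjusted p = 0.0636), and 9 of 9 in females alone, against 13.0% and 13.7% of genes. The log2 fold changes were 4.10 and 3.86 for H2-Q7, 2.17 and 2.45 for H2-Q4 and 1.55 and 1.94 for H2-D1 in males and females. Both comparisons with C57BL/6 use the same 8 control mice.

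In Winnie-Prolapse against Winnie, 0 of 9 members passed the stricter limits in edgeR, and 0.0% of genes did. With both sexes fitted together, none passed at an adjusted p under 0.05 either, against 4.27% of genes, although 9 of 9 had a higher mean in Winnie-Prolapse and 7 of 9 an unadjusted p under 0.05. The log2 differences were 0.51 ± 0.20 (SE) for H2-K1 (adjusted p = 0.114), 0.58 ± 0.24 for H2-D1 (0.124) and 0.67 ± 0.32 for H2-Q4 (0.188). They were 0.92 ± 0.43 for H2-Q6 (adjusted p = 0.179) and 1.10 ± 0.48 for H2-Q7 (0.149). The remaining values were 0.11 ± 0.18 for H2-T23 (adjusted p = 0.723), 0.45 ± 0.17 for H2-T22 (0.100), 0.68 ± 0.31 for H2-T10 (0.166) and 0.40 ± 0.16 for H2-M3 (0.125). In females alone 4 of 9 passed at an adjusted p under 0.05 with the 1.5-fold limit, against 8.09% of genes: H2-K1 (0.89, adjusted p = 0.0359), H2-Q6 (2.18, 0.0186), H2-Q7 (2.48, 0.0169) and H2-T22 (0.70, 0.0399). In males alone 0 of 9 passed, against 0.0% of genes, with log2 differences of -0.12 to 0.18. Ranges overlapped for all 9 members, and 0.411% of genes had higher ranges without overlap.

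**Figure D2:**
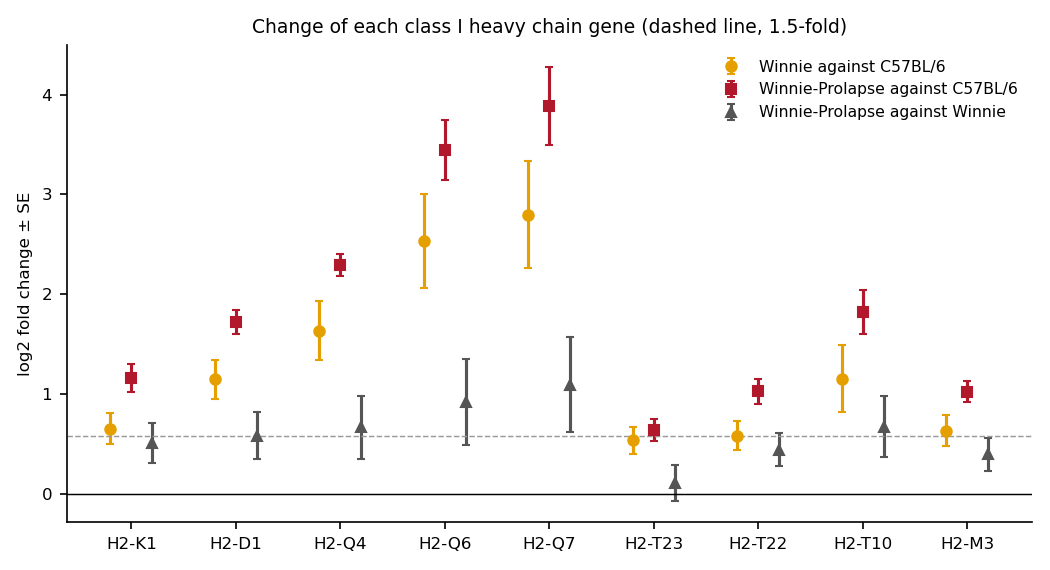
Log2 fold change of each of the 9 genes in the 3 group comparisons (points, edgeR), with bars of 1 standard error. In Winnie-Prolapse against C57BL/6 the values run from 0.64 for H2-T23 to 3.88 for H2-Q7, and in Winnie-Prolapse against Winnie from 0.11 to 1.10.

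The members made up 0.166% ± 0.0118 (SD, n = 8) of all counts in C57BL/6, 0.295% ± 0.103 (n = 7) in Winnie mice and 0.428% ± 0.0707 (n = 7) in Winnie-Prolapse. H2-K1 and H2-D1 gave most of these counts in each group, 84.8%, 83.3% and 82.6% on average. Within the family, the H2-Q4, H2-Q6 and H2-Q7 counts together went from 3.75% ± 0.955 in C57BL/6 to 7.49% ± 3.00 in Winnie and 10.14% ± 1.60 in Winnie-Prolapse. The share of H2-T23 went the other way, from 7.44% to 5.91% and 4.22%. The ratio of H2-D1 to H2-K1 counts was 0.711 ± 0.0748, 0.973 ± 0.152 and 1.06 ± 0.0814 in the same order. Winnie-Prolapse mice lay above every C57BL/6 mouse in that ratio, with a lowest value of 0.953 against a highest of 0.865.

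**Figure D3:**
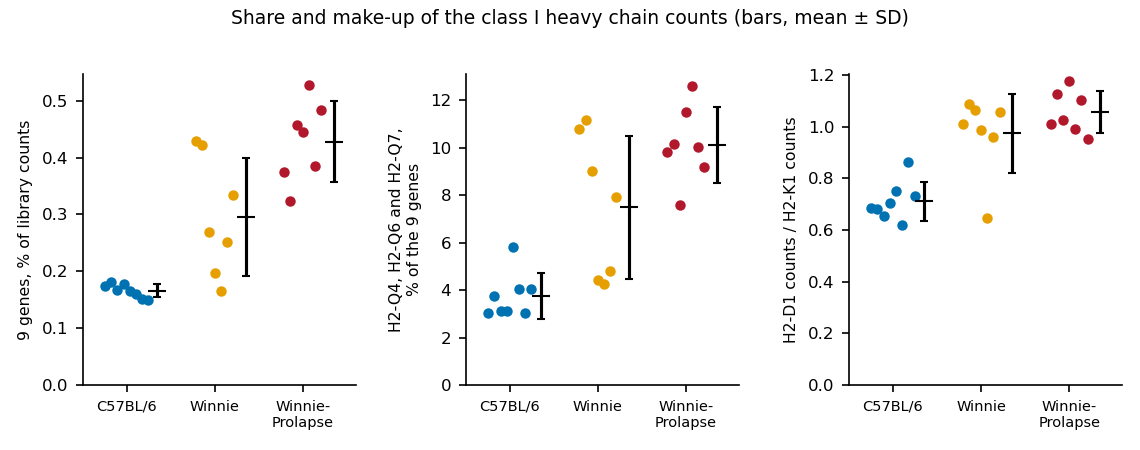
The members' summed counts as percent of library counts, the share of the family taken by the Q genes, and the ratio of H2-D1 to H2-K1 counts, 1 point per mouse with the group mean ± SD beside the points. The family share runs from 0.150% to 0.181% in C57BL/6 and from 0.323% to 0.528% in Winnie-Prolapse.

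To ask whether members changed by unequal amounts, the counts were also scaled by the H2-K1 count of each library, a comparison added after the data had been seen. A positive value then says that a gene changed by more than H2-K1, and the median of all genes stood at -0.57 in Winnie and -1.11 in Winnie-Prolapse. In Winnie against C57BL/6, 3 of the 8 other members were higher relative to H2-K1 (adjusted p under 0.05, 1.5-fold), against 2.28% of genes: H2-Q4 (0.88, adjusted p = 0.00559), H2-Q6 (1.70, 0.00536) and H2-Q7 (1.93, 0.00543). In Winnie-Prolapse, 4 of 8 were, against 4.73% of genes: H2-Q4 (1.17, adjusted p = 5.54e-07), H2-Q6 (2.26, 1.15e-06), H2-Q7 (2.68, 1.98e-06) and H2-T10 (0.68, 0.0194). H2-D1 stood 0.57 above H2-K1 on that log2 scale (adjusted p = 0.000287) and H2-T23 at -0.52 (0.000264), both under the 1.5-fold limit. H2-T22 (-0.12, adjusted p = 0.304) and H2-M3 (-0.10, 0.572) showed no difference past the test. In Winnie-Prolapse against Winnie, 0 of 8 passed, against 2.88% of genes, and the lowest adjusted p was 0.0600, for H2-T23 (-0.41).

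Mice of the Winnie group differed widely in these genes. Replicate 5, a female, had the lowest value of the group for 7 of the 9 members, and replicate 1, a male, the highest for 6. In Winnie-Prolapse, replicate 5, a female, had the highest value for 8 of 9. Correlations of log2 CPM with H2-K1 were computed within each group over 45 pairs, with exact two-sided permutation tests and adjusted over those pairs. Among Winnie mice (n = 7), Pearson's r with H2-K1 was 0.855 to 0.985 for the 8 other members and all 8 passed the exact permutation test at adjusted p = 0.0179 to 0.0499. Without the pair of mice farthest from the median, replicates 1 and 2, r stayed at 0.803 to 0.963. Spearman's adjusted p, exact as well, was 0.0503 to 0.108. In C57BL/6 mice (n = 8), r ran from -0.13 to 0.860, and only H2-T22 passed (exact adjusted p = 0.0204), with r falling to 0.442 without replicates 7 and 8. In Winnie-Prolapse (n = 7), H2-D1 (r = 0.928), H2-T23 (0.915) and H2-T22 (0.889) passed, at exact adjusted p of 0.0204, 0.0250 and 0.0316, and r was 0.793, 0.899 and 0.853 without replicates 2 and 5. Whether the correlations differ between groups was not tested.

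Other genes moved with H2-K1 in Winnie mice too. Over the 7 Winnie mice, r was 0.962 for B2m (exact adjusted p = 0.0179), 0.878 for Nlrc5 (0.0276) and 0.841 for Tap1 (0.0368). For Irf1 it was 0.613 (exact adjusted p = 0.262), for the leukocyte gene Ptprc 0.672 (0.220) and for the epithelial gene Epcam -0.25 (0.670). In Winnie-Prolapse only B2m passed (r = 0.864, exact adjusted p = 0.0338), and in C57BL/6 none of the 6 did.

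**Figure D4:**
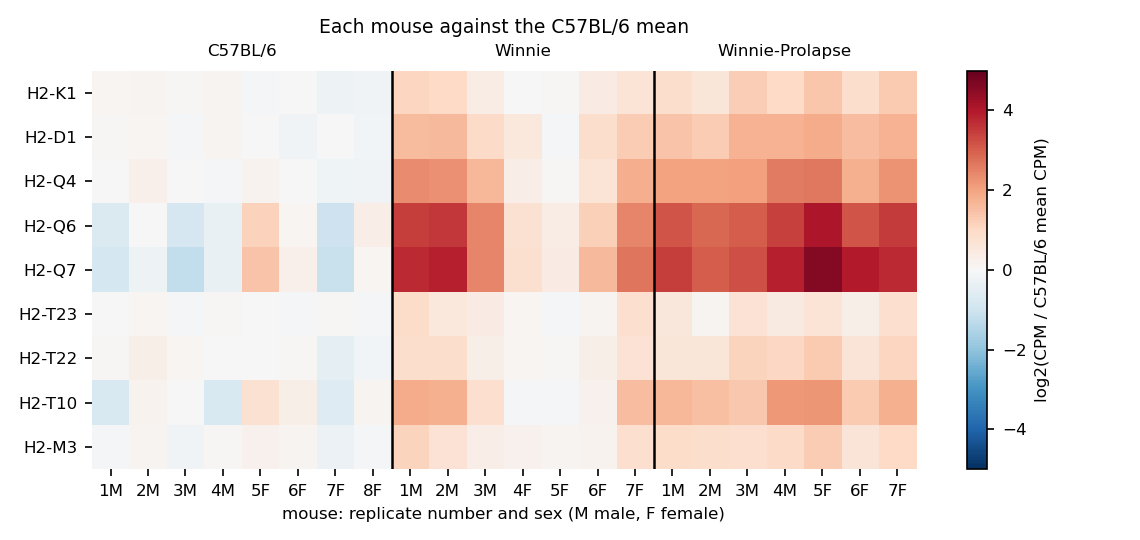
Log2 of the CPM of each of the 9 genes (rows) in each of the 22 mice (columns, by group and replicate) relative to its C57BL/6 mean, from blue (lower) to red (higher). The Winnie columns differ from mouse to mouse, with replicate 5 close to the C57BL/6 columns and replicate 1 close to the Winnie-Prolapse columns.

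No member differed between males and females over the 3 groups: 0 of 9 passed at an adjusted p under 0.05, against 0.0788% of genes. The male minus female log2 differences were -0.11 to 0.33, with adjusted p of 0.966 to 0.995 in edgeR. The means differed by sex within the Winnie group, where H2-Q6 was 111 ± 40.5 CPM (SD) in 3 males and 31.8 ± 22.2 in 4 females. In Winnie-Prolapse the order was the reverse, with 105 ± 17.8 in 4 males and 145 ± 47.4 in 3 females. H2-Q7 averaged 98.1 CPM in male and 27.6 in female Winnie mice, against 95.3 and 155 in Winnie-Prolapse. The interaction of sex and group was not called for any member in edgeR, where 0.0% of genes passed, with unadjusted p of 0.00135 for H2-Q6 and 0.00177 for H2-Q7 and adjusted p = 0.263 for both. DESeq2 called 2 members, H2-Q6 (adjusted p = 0.0201) and H2-Q7 (0.0253), among 0.945% of genes. Without Winnie replicate 7, edgeR called H2-Q4 (adjusted p = 0.0271) and H2-Q6 (0.0333), among 0.234% of genes.

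Partner genes of the class I pathway were higher alongside the heavy chains. Among 9 genes of the light chain and peptide loading, 8 were higher in Winnie-Prolapse against C57BL/6 by the stricter limits (9.84% of all genes) and 7 in Winnie by the wider ones (7.42%). B2m, the light chain, averaged 392 ± 60.2 CPM (SD) in C57BL/6, 1147 ± 609.8 in Winnie mice and 1747 ± 395 in Winnie-Prolapse. It rose by a log2 fold change of 1.64 ± 0.28 in Winnie (adjusted p = 0.00238) and 2.25 ± 0.18 in Winnie-Prolapse (1.94e-07). The ratio of the members' summed counts to B2m counts was 4.34, 2.87 and 2.50 on average in the 3 groups. Tap1, a subunit of the peptide transporter, rose by 2.76 ± 0.39 (adjusted p = 0.00115) and 3.38 ± 0.15 (1.87e-09). Smaller log2 changes in Winnie-Prolapse were those of the chaperones Calr (1.14 ± 0.11, adjusted p = 1.23e-06) and Pdia3 (0.89 ± 0.09, 1.37e-06) and of Tapbp, or tapasin (0.70 ± 0.11, 8.49e-05). The chaperone Canx (0.38 ± 0.10, adjusted p = 0.00466) did not pass.

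All 5 immunoproteasome genes, whose products cut proteins into peptides for class I, were higher by the stricter limits in Winnie-Prolapse, against 9.84% of all genes. All 5 were higher by the wider ones in Winnie, against 7.42%. The catalytic subunits Psmb8 and Psmb9 rose in Winnie-Prolapse by 2.76 ± 0.15 (adjusted p = 7.19e-09) and 3.05 ± 0.14 (2.05e-09) on the log2 scale. Psmb10 (1.46 ± 0.13), Psme1 (1.33 ± 0.09) and Psme2 (0.88 ± 0.13) rose by less.

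Of 6 genes for factors of class I transcription, 2 were higher in both comparisons, Nlrc5 by the stricter limits in each and Irf1 by the wider ones in Winnie. Of all genes, 9.84% were higher in Winnie-Prolapse by the stricter limits, and 0.0868% and 7.42% in Winnie by the stricter and the wider ones. The median log2 fold change of the 6 genes was 0.21 in Winnie and 0.24 in Winnie-Prolapse. Nlrc5, the class I transactivator, averaged 3.19 ± 1.59 CPM in C57BL/6, 44.0 ± 30.1 in Winnie mice and 74.0 ± 20.8 in Winnie-Prolapse. It was the single gene of the list past the stricter limits in Winnie (log2 fold change 3.88 ± 0.50, adjusted p = 0.000937), and in Winnie-Prolapse it rose by 4.61 ± 0.27 (9.59e-09). Irf1 rose by 1.09 ± 0.22 (0.00497) and 1.38 ± 0.13 (1.44e-06). Rfxank, a subunit of the factor that binds the X box, fell by 0.71 in Winnie-Prolapse (adjusted p = 0.00105), past the wider limits. Its partner Rfx5 (0.51 ± 0.13, adjusted p = 0.00350) was under the fold limit, and Irf2 (-0.46 ± 0.19, 0.0550) did not pass.

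Of 9 genes for interferons and their receptors, 6 passed the filter on low counts in Winnie-Prolapse against C57BL/6. Ifng, the gene of interferon-gamma, had 0 or 1 count in each C57BL/6 library, below the floor, 0.0338 to 2.02 CPM in Winnie (median 0.368) and 1.39 to 10.199 in Winnie-Prolapse (median 3.16). It was too low to be tested in Winnie against C57BL/6. In Winnie-Prolapse against C57BL/6 it passed the filter only through the Winnie-Prolapse libraries, so its values there are a description with no test. In Winnie-Prolapse against Winnie it also passed the filter through the Winnie-Prolapse libraries, so the log2 difference of 2.75 there is likewise a description with no test. Ifnar2, a chain of the type I interferon receptor, rose by 1.25 ± 0.16 (adjusted p = 1.99e-05) against C57BL/6 and, by the wider limits, by 0.83 ± 0.20 (adjusted p = 0.0259) against Winnie. The chains Ifngr1 (-0.44 ± 0.14, adjusted p = 0.0125), Ifngr2 (-0.20 ± 0.15, 0.285), Ifnar1 (0.23 ± 0.10, 0.0752) and Ifnlr1 (0.41 ± 0.15, 0.0280) did not pass.

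Among 6 genes for receptors and co-receptors that read class I, Klrk1 and Pirb were higher in Winnie-Prolapse by the stricter limits, against 9.84% of all genes. Klrd1 and Cd8a were higher there by the wider limits only, by which 16.7% of all genes were higher. In Winnie, 4 of 5 tested were higher by the wider limits, against 7.42% of genes. Klrc1 passed the filter on low counts in Winnie-Prolapse against C57BL/6 only through the Winnie-Prolapse libraries, so its call is not counted. Pirb, an inhibitory receptor of myeloid and B cells, averaged 3.49 ± 1.47 CPM in C57BL/6, 8.18 ± 4.65 in Winnie mice and 25.6 ± 16.3 in Winnie-Prolapse, and was higher in Winnie-Prolapse than in Winnie by 1.64 ± 0.39 (adjusted p = 0.0243). Klrk1 (NKG2D) rose by 1.91 ± 0.40 in Winnie (adjusted p = 0.00548) and 2.27 ± 0.22 in Winnie-Prolapse (1.44e-06). Klrc1 (NKG2A), whose partner Klrd1 (CD94) makes with it a receptor for H2-T23, averaged 0.109 ± 0.0757 CPM in C57BL/6, 0.393 ± 0.222 in Winnie mice and 0.807 ± 0.214 in Winnie-Prolapse. Klrd1 itself rose by 1.19 ± 0.28 (adjusted p = 0.00255) and Cd8a by 1.93 ± 0.41 (0.00104), past the wider limits, while Cd8b1 (1.36 ± 0.60, 0.0676) did not pass.

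**Figure D5:**
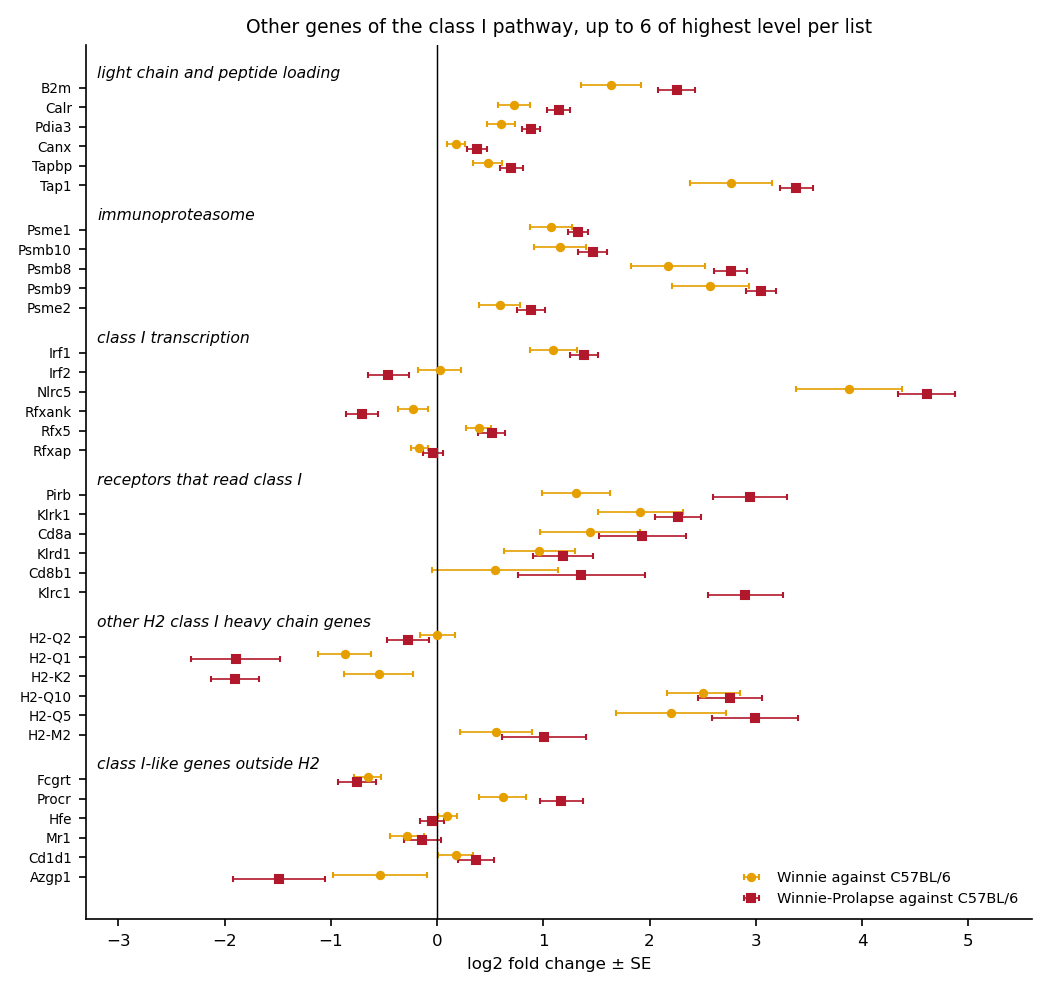
Log2 fold changes (edgeR) of up to 6 genes of each list (peptide loading, immunoproteasome, class I transcription, receptors, other H2 genes, class I-like genes) in Winnie and in Winnie-Prolapse against C57BL/6, with bars of 1 standard error. B2m stands at 1.64 and 2.25, Tap1 at 2.76 and 3.38 and Nlrc5 at 3.88 and 4.61.

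Not every class I heavy chain gene of the H2 region was higher. Of 22 further genes listed, 19 were in the table and 8 were tested in Winnie-Prolapse against C57BL/6. By the stricter limits 2 were higher and H2-K2 was lower, where 18.3% of genes passed in either direction. H2-Q10 (2.75 ± 0.30, adjusted p = 4.47e-06) and H2-Q5 (2.99 ± 0.40, 2.63e-05) were the higher ones. H2-Q10 shares windows of 100 bases with H2-K1 and H2-Q7. H2-K2 fell from 21.1 ± 2.69 CPM in C57BL/6 to 5.23 ± 2.04 in Winnie-Prolapse (-1.90 ± 0.22, adjusted p = 7.61e-06). H2-Bl, named after its values had been seen, went from 1.24 ± 0.776 to 0.0875 ± 0.0698 CPM, at the floor of detection. It passed the filter only through the C57BL/6 libraries, so its call is not counted. H2-Q1 fell by the wider limits (-1.89 ± 0.42, adjusted p = 0.00153), while H2-Q2 (-0.27 ± 0.20, 0.260) did not pass. By the wider limits 4 were higher, and H2-K2 and H2-Q1 lower, where 34.4% of genes passed in either direction. In Winnie against C57BL/6, 0 of 9 tested passed the stricter limits, as did 0.0925% of genes. By the wider ones 3 were higher and H2-Q1 was lower, H2-Bl again not counted, where 15.9% of genes passed in either direction. In Winnie-Prolapse against Winnie, 0 of 8 passed the wider limits, where 6.99% of genes did. Of 6 class I-like genes outside H2, 1 was higher in Winnie-Prolapse against C57BL/6 by the stricter limits, against 9.84% of genes. It was Procr, the endothelial protein C receptor (1.17 ± 0.20, adjusted p = 0.000218). Fcgrt, the neonatal Fc receptor, fell (-0.75 ± 0.18, 0.00258) and so did Azgp1 (-1.49 ± 0.43, 0.00921), both by the wider limits, which 34.4% of genes passed in either direction.

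The genes whose pattern was most like that of H2-K1 were ranked by Pearson's r of log2 CPM over all 22 libraries, among 13588 genes with no members included. This ranking follows the difference between groups as well as the spread within them, and is a description with no test. AW112010 came first (r = 0.956), followed by Il18bp (0.947), Ly6c1 (0.943), Dpagt1 (0.943), B2m (0.942), Spata6 (0.941), Tnfsf13b (0.939), Parp3 (0.939), Ido1 (0.939) and Batf2 (0.936). The same measure was 0.976 for H2-T22, 0.960 for H2-D1, 0.944 for H2-Q4 and 0.934 for H2-M3. It was 0.913 for H2-Q6, 0.906 for H2-Q7, 0.883 for H2-T23 and 0.878 for H2-T10. Within groups, r with H2-K1 for AW112010 was 0.899 in C57BL/6, 0.915 in Winnie mice and 0.909 in Winnie-Prolapse, while for Il18bp it was -0.13, 0.953 and 0.891.

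Markers of other cell types moved with the groups, and their part in the changes of the class I genes was not tested. The summed level of 5 pan-leukocyte markers ran from 32.6 to 239 CPM in C57BL/6, 97.9 to 245 in Winnie mice and 140.3 to 416 in Winnie-Prolapse, and 2 of 5 were higher by the stricter limits in Winnie-Prolapse against C57BL/6, where 9.84% of genes were. T and NK cell markers summed to 3.17 to 17.1, 11.2 to 27.2 and 15.0 to 38.8 CPM in the 3 groups, with 5 of 6 tested higher in Winnie-Prolapse. Of the macrophage and dendritic cell markers 5 of 7 were higher, of the B and plasma cell markers 2 of 6 and of the endothelial markers 1 of 5. By the wider limits, by which 16.7% of genes were higher, the counts were 5 of 5 for the pan-leukocyte, 5 of 6 for the T and NK cell, 7 of 7 for the macrophage and dendritic cell, 3 of 6 for the B and plasma cell and 4 of 5 for the endothelial markers. In Winnie against C57BL/6, 5 of 6 T and NK cell markers tested, 4 of 7 macrophage and dendritic cell markers, 2 of 6 B and plasma cell markers and 1 of 5 pan-leukocyte markers were higher at an adjusted p under 0.05 with the 1.5-fold limit, the limits by which 8 of 9 members and 7.42% of genes were higher. The 5 neutrophil markers summed to 0.362 to 2.82 CPM in C57BL/6, 1.35 to 121.5 in Winnie mice and 64.5 to 1249 in Winnie-Prolapse. Their calls are not counted, since S100a8, S100a9 and Retnlg, near the floor in C57BL/6, passed the filter through the groups where they were high. None of the defining markers of these lists was at 0 in a whole group. The 5 smooth muscle markers moved the other way, from a sum of 5863 to 10503 CPM in C57BL/6 to 1143 to 2777 in Winnie-Prolapse. There 5 of 5 fell by the stricter limits, which 18.3% of genes passed in either direction. The smooth muscle markers summed to 1771 to 6318 CPM in Winnie mice, where 5 of 5 fell by the wider limits, which 15.9% of genes passed in either direction. By those limits 2 of 5 were lower in Winnie-Prolapse than in Winnie, where 6.99% of genes passed in either direction. Epithelial markers summed to 9634 to 11326, 10122 to 13825 and 7964 to 13851 CPM in the 3 groups, and 0 of 8 passed in either direction. By the wider limits 34.4% of genes passed in Winnie-Prolapse against C57BL/6. The 8 distal colon markers, which include products of mature colonocytes, summed to 8367 to 16518 CPM in C57BL/6, 5259 to 11329 in Winnie mice and 3527 to 8103 in Winnie-Prolapse. In Winnie-Prolapse against C57BL/6, 4 of 8 were lower by the wider limits and 2 higher, where 34.4% of genes passed in either direction. The lower ones were Car1 (-2.98, adjusted p = 2.57e-05), Car4 (-2.04, 0.0255), Aqp8 (-2.19, 0.0339) and Muc2 (-0.84, 0.0155), and the higher ones Cdh17 (0.73, 0.000418) and Krt20 (0.87, 0.0397). In Winnie against C57BL/6, 0 of 8 were lower by those limits and 2 higher, Cdh17 (0.60, 0.0146) and Krt20 (1.07, 0.0322), where 15.9% of genes passed in either direction.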

How the data were processed

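Poly(A) RNA of the distal colon was sequenced from 22 mice as stranded, paired-end libraries, per the labels and the methods of the study. Those methods describe C57BL/6 and Winnie mice of 14 weeks and no prolapse group, give another number of Winnie mice than the labels, and name another RNA kit. Where the labels are silent, they were taken to hold for all 3 groups. The authors ran the RNAsik pipeline on mouse genome GRCm38 and deposited raw read counts per gene from featureCounts, without normalization. The submitters' processing notes also name STAR and limma. The annotation release, the strand setting and the handling of reads shared by several genes are not given in the sources used here, and each can move counts between similar or overlapping class I genes. Groups, sex and age were read from the labels. Replicate numbers follow accession order and pair no mice.

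CPM and FPKM (over merged exons of GENCODE M21) were computed here from library totals. Counts were tested on the whole table with edgeR 4.0.16 in R 4.3.3 (quasi-likelihood F test, TMM, filterByExpr, Benjamini-Hochberg adjustment over all genes tested), separately for each pair of groups, and a gene was called at an adjusted p under 0.001 and at least 1.5-fold, as in the methods of the study. Wider limits used 0.05. Sex and its interaction with group were tested over all libraries at 0.05. Correlations used exact permutation of pairings in SciPy 1.17.1. The tests were tested on simulated data first.

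The 9 members, the gene lists and the tests were chosen with earlier results of these data known. All members were named, and from each pathway list at most the 6 of highest mean CPM. H2-Bl was chosen after its values had been seen. Alternatives were DESeq2 1.42.0, limma-voom (limma 3.58.1), a newer edgeR fit, other filters and scalings, sex as a covariate, 1 sex at a time, all groups in 1 fit, and each library left out. The floor of 3 counts covers counting error only. GENCODE and RefSeq names and positions were matched by Ensembl identifier or symbol. Results for 1 gene are not reported here.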

Additional observations from a re-analysis of the deposited data

Results flagged for a closer look

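Single mice lay far from the others of their group in 3 of the 30 sets of values checked, which were the CPM of each of the 9 genes and the family share in each group, at a limit that chance passes in about 1 of 20 sets. In C57BL/6, replicate 5 had 26.5 CPM of H2-Q6, where the next mouse had 15.2. The same mouse had 23.7 CPM of H2-Q7, where the next had 10.38, and it also had the highest sums of pan-leukocyte markers (239 CPM) and of T and NK cell markers (17.1 CPM) of its group. The part of those markers in its H2-Q6 and H2-Q7 values was not tested. In Winnie-Prolapse, replicate 5 had 198 CPM of H2-Q6, where the next mouse had 133.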

How the results depend on the processing

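In Winnie against C57BL/6, the count of members past the stricter limits was 0 and became 5 with DESeq2 (3.46% of all genes higher), 4 with all 3 groups in 1 fit (0.979%), 3 in males only (0.637%) and 8 at an adjusted p under 0.05 (7.42%), and it ran from 0 to 4 with each library left out, the 4 being without Winnie replicate 5. In Winnie-Prolapse against C57BL/6, the count of 9 became 3 in males only and 3 in females only, where fewer mice were fitted and the log2 fold changes were 0.51 to 4.10 and 0.81 to 3.86 (8 and 9 of 9 by the wider limits), and 8 without TMM factors. With each library left out the count was 8 to 9, where 14.4% to 20.8% of genes were called in either direction. H2-T23 was lost without Winnie-Prolapse replicate 7 and without the 3 libraries that stood apart. In Winnie-Prolapse against Winnie, the count was 0 in all settings, with 0 to 0 when each library was left out. In males only, the log2 difference turned for H2-Q6 (-0.0765), H2-Q7 (-0.0433) and H2-T23 (-0.121), none of them past the test, and in females only it rose to 2.18 and 2.48 for H2-Q6 and H2-Q7. The sex by group interaction gave 2 members with DESeq2 and 0 to 2 with each library left out, the 2 being without Winnie replicate 7. Between the sexes the count stayed at 0. With TMM factors in the CPM, the correlation with H2-K1 became 0.886 for H2-M3 in Winnie-Prolapse (exact adjusted p = 0.0256) and 0.0463 for Epcam in Winnie, from -0.25. The cause of these changes was not tested. Over the single members and settings, 88 of the log2 fold changes in Winnie against C57BL/6 kept their side of the limits and 20 crossed to called, while in Winnie-Prolapse against C57BL/6 95 kept it and 13 were lost, all with the same sign. The 3 libraries to leave out, the H2-K1 scaling and the listing of members behind the interaction were chosen after seeing the data. No paired analysis was possible because the labels give no replicate numbers and the mice of the groups are different animals. At the floor of 0.0825 to 0.121 CPM, depth did not limit the members, but it limited Ifng in C57BL/6.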
